A study of Mus musculus with 12 samples.

Results

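Inhibitory interneurons of the mouse retina were examined through 10 genes that mark amacrine and horizontal cells, *Gad1*, *Gad2*, *Slc32a1*, *Slc6a9*, *Calb1*, *Calb2*, *Tfap2a*, *Tfap2b*, *Prox1* and *Lhx1*. The members are all probes that carry one of these gene symbols, which are 27 of the 45281 probes on the array. A probe was called detected where its signal exceeded the negative control beads of its own array at a detection p-value under 0.05. Of the 27 probes, 21 were detected on at least 1 array and 19 on all 12, and these 21 stand for 9 of the 10 genes. The exception was *Calb1*, which encodes calbindin, the classical label of mouse horizontal cells. Its only probe was undetected on every array, so *Calb1* has no usable level in these data. The other 5 undetected probes belong to *Tfap2a* (3), *Gad1* (1) and *Gad2* (1), and each of these genes was measured by another probe.

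RNA came from P10 retinas of homozygous E168d2neo/d2neo, R90Wneo/Wneo and Crx-/- mice and of WT mice, with 3 arrays per genotype. E168d2 is a knock-in of a 2-bp deletion that shifts the reading frame of *Crx* and truncates the protein, and R90W is a knock-in that replaces 1 residue of its DNA-binding homeodomain. Both knock-in groups still carry the neo cassette, which lowers the amount of mutant protein, and Crx-/- mice lack functional CRX. All mice had been backcrossed to C57BL6/J, the knock-ins having been made in embryonic stem cells of strain 129Sv/J, and each array holds pooled retinal RNA of 1 male and 1 female, so n counts pools.

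Amacrine and horizontal cells are the inhibitory neurons of the retina. Horizontal cells feed back onto rods and cones in the outer retina, and amacrine cells act on bipolar and ganglion cells in the inner retina. Most release GABA or glycine, and both types arise from progenitors under shared transcription factors such as PTF1A, TFAP2A and TFAP2B. CRX is a homeodomain transcription factor of photoreceptors and is also found in bipolar cells. The study saw weaker CRX staining in the outer inner nuclear layer, where it places bipolar and horizontal cell bodies. CRX is not known as a factor of amacrine or horizontal cells, and the members mainly describe neurons that neighbour the cells in which CRX acts.

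Mean raw signal per array lay between 176 and 394, lowest on WT replicate 1 and E168d2neo/d2neo replicate 1, and 14791 to 18710 probes were detected per array. Cone genes were lower in the mutants, with 5 of 5 measured in E168d2neo/d2neo, 4 of 5 in R90Wneo/Wneo and 5 of 5 in Crx-/- changed, and median log2 fold changes of -5.59, -1.72 and -3.73. Significance analysis of microarrays (SAM), a permutation-based method, called 5, 0 and 5 of them. The *Crx* probe itself averaged a log2 signal of 13.90 ± 0.21 in E168d2neo/d2neo, 13.48 ± 0.08 in R90Wneo/Wneo, 12.95 ± 0.11 in Crx-/- and 13.51 ± 0.12 in WT (SD, n = 3 each). Its place relative to the deleted part of the gene is not given in the sources used here, so it does not check the Crx-/- label. Lens crystallin genes stood apart on 4 arrays. Their summed log2 signal over 5 lens genes was 15.76 on E168d2neo/d2neo replicate 1, 13.30 on R90Wneo/Wneo replicate 3, 13.88 on Crx-/- replicate 1 and 11.54 on Crx-/- replicate 3, against 6.46 to 9.04 on the other 8 arrays. *Prox1* and *Tfap2a* are also lens genes, and the lens values are therefore given beside them.

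Signals were quantile-normalized and floored at 16 before log2 transformation, so that all levels below are log2 signals and all differences are log2 fold changes. A probe was called changed at an adjusted p of at most 0.05 from limma, fitted over all 24311 probes detected on at least 1 array. In E168d2neo/d2neo against WT, 1 of the 21 member probes was lower and 0 were higher, where 3.68% of all tested probes were lower and 2.88% higher. In R90Wneo/Wneo against WT, 0 of 21 were lower or higher, where 0.847% of all probes were lower and 0.494% higher (SAM also called 0). In Crx-/- against WT, 1 of 21 was higher and 0 were lower, where 3.14% of all probes were higher and 3.87% lower. An unadjusted p under 0.05 held for 4, 0 and 2 of 21 in E168d2neo/d2neo, R90Wneo/Wneo and Crx-/-, beside 21.6%, 11.4% and 21.6% of all probes. No member probe combined a changed call with a 2-fold difference in any comparison with WT (3.79%, 0.979% and 3.89% of all probes did so in E168d2neo/d2neo, R90Wneo/Wneo and Crx-/-). Over the 21 probes the log2 fold change had a median of 0.09 (E168d2neo/d2neo), 0.07 (R90Wneo/Wneo) and 0.08 (Crx-/-), beside a median of 0.01 over all tested probes in each. These shares are near the background, and the 3 comparisons use the same WT arrays.

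The 95% intervals bound what could have been missed. The interval of the log2 fold change lay within 2-fold in both directions for 17 of 21 member probes when E168d2neo/d2neo was compared with WT, for 19 with R90Wneo/Wneo and for 17 with Crx-/-. Each count includes the dimmer *Slc6a9* probe. It lay at the floor on every E168d2neo/d2neo and WT array, so its interval there bounds nothing. With 1 R90Wneo/Wneo and 0 Crx-/- arrays detected, its intervals in the other comparisons with WT bound little. Outside in E168d2neo/d2neo were the brighter *Gad1* probes (upper limits 1.28 and 1.73), the dimmest *Tfap2b* probe (1.44) and the dimmer *Lhx1* probe (lower limit -1.22). Between mutants, 0 of 21 member probes changed in E168d2neo/d2neo against Crx-/- (0.691% of all probes), in R90Wneo/Wneo against Crx-/- (0.502%) or in E168d2neo/d2neo against R90Wneo/Wneo (0.654%). At an unadjusted p under 0.05 there were 2, 4 and 2 of 21 in these comparisons, beside 10.4%, 10.6% and 8.71% of all probes. SAM called 0 in each comparison. RNA of whole retinas cannot tell fewer cells of a type from less RNA per cell.

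**Figure D1:**
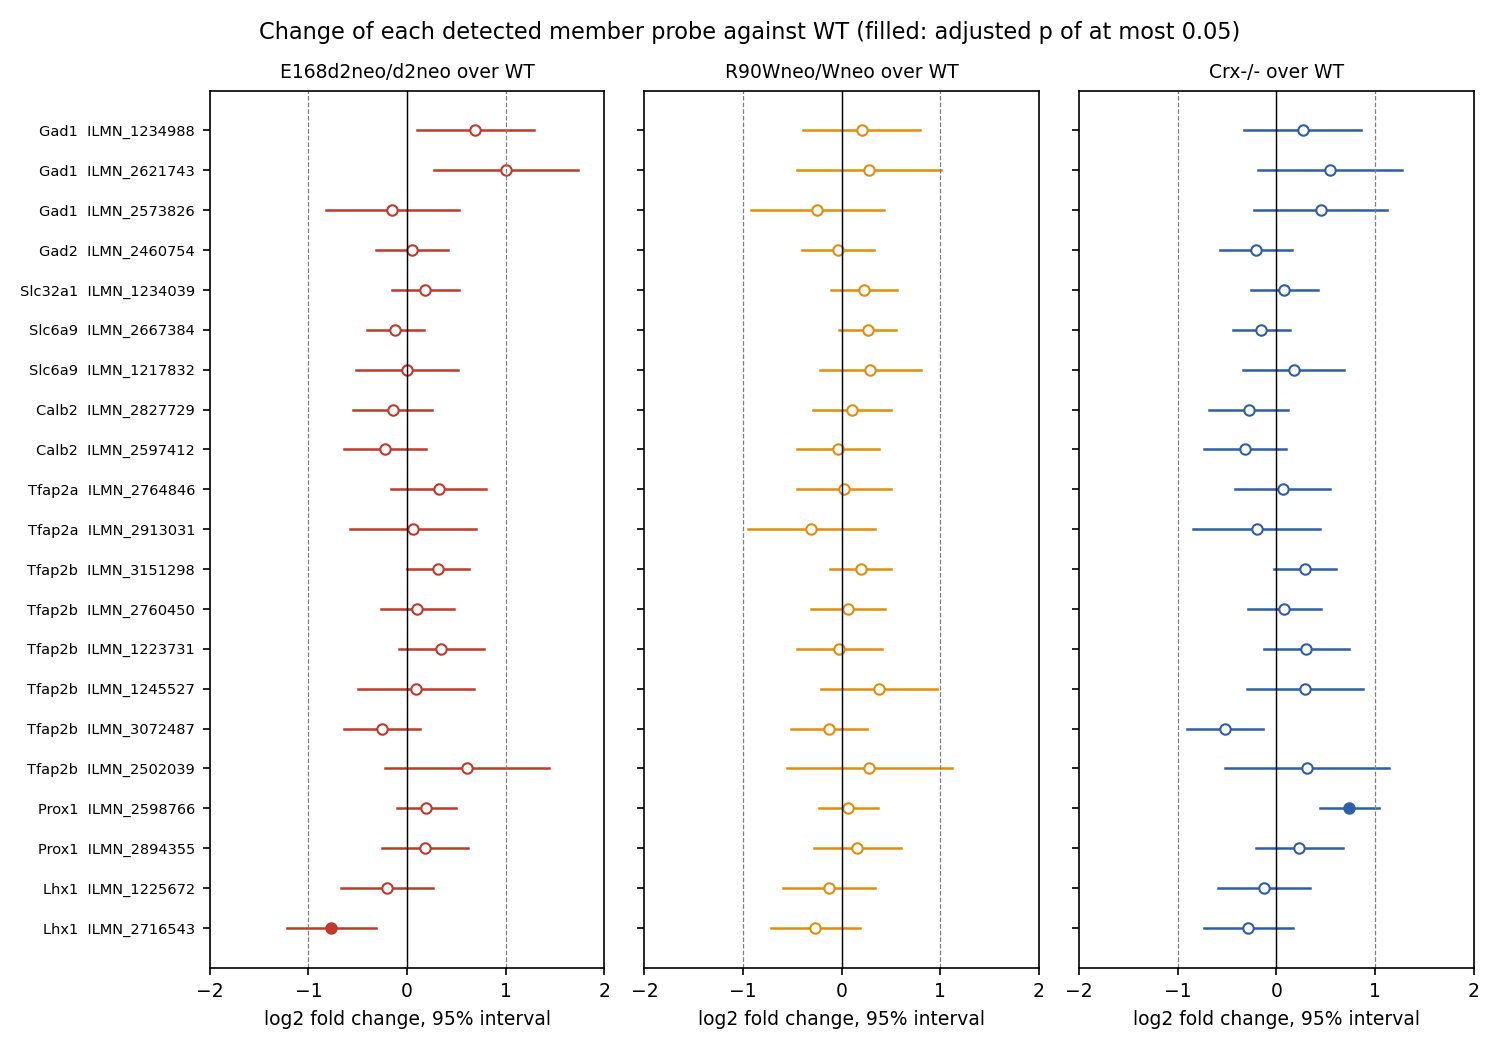
Log2 fold change against WT (x axis) of each of the 21 detected member probes (y axis, by gene and probe) in E168d2neo/d2neo, R90Wneo/Wneo and Crx-/-, with 95% limma intervals. Filled points are the 2 changed probes, 1 of *Lhx1* in E168d2neo/d2neo and 1 of *Prox1* in Crx-/-, and dashed lines mark 2-fold.

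The enzymes that make GABA from glutamate are encoded by *Gad1*, which serves most of the cell, and *Gad2*, which is concentrated at nerve terminals. The brightest *Gad1* probe (ILMN_1234988) read 8.89, 9.55 and 9.80 in E168d2neo/d2neo, 9.28, 8.36 and 9.12 in R90Wneo/Wneo, 8.99, 8.90 and 9.07 in Crx-/- and 8.79, 8.81 and 8.56 in WT. All 3 E168d2neo/d2neo arrays lay above all 3 WT arrays, replicate 1 only just. The log2 fold change of 0.69 (standard error 0.27) did not pass the test (adjusted p = 0.162). Without E168d2neo/d2neo replicate 1, the array richest in lens signal and second lowest in raw signal, it was 0.95 and passed (adjusted p = 0.0339). A second *Gad1* probe (ILMN_2621743) read 7.55, 7.89 and 8.16 in E168d2neo/d2neo, 7.55, 6.64 and 7.26 in R90Wneo/Wneo, 7.33, 7.30 and 7.62 in Crx-/- and 7.61, 6.29 and 6.71 in WT. WT replicate 1 reached into the E168d2neo/d2neo values, and the groups overlapped. Its log2 fold change of 1.00 in E168d2neo/d2neo (standard error 0.33) missed the threshold (adjusted p = 0.107), and it passed without WT replicate 1 (1.37, adjusted p = 0.0232). The remaining, dimmer probe (ILMN_2573826) had a log2 fold change of -0.15 in E168d2neo/d2neo (adjusted p = 0.834), so the *Gad1* probes did not share a direction.

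*Gad2* was flatter. Its detected probe read 7.97, 8.26 and 8.53 in E168d2neo/d2neo, 8.18, 8.16 and 8.14 in R90Wneo/Wneo, 7.96, 7.82 and 8.18 in Crx-/- and 8.20, 8.27 and 8.13 in WT. The 4 genotypes overlapped, and the 95% interval of the log2 fold change against WT ran from -0.31 to 0.42 for E168d2neo/d2neo, from -0.40 to 0.33 for R90Wneo/Wneo and from -0.57 to 0.16 for Crx-/-.

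The start of *Gad1* is shown because its promoter window was the only one among the members to hold the 6 letters TAATCC, the core read by CRX and OTX homeodomains, on either strand (as GGATTA on the other). Windows run from 250 bases before to 50 after each annotated start (RefSeq, GRCm38.p6), and the 250 bases before the start are printed with the match in capitals. Of 32851 such windows, 7.06% hold the letters, and of the members' 12 windows, which cover 8 genes and neither *Calb1* nor *Calb2*, 1 did. A match is a description of the letters and not a site of binding.
Gad1, chr2:70561879-70562128, plus strand: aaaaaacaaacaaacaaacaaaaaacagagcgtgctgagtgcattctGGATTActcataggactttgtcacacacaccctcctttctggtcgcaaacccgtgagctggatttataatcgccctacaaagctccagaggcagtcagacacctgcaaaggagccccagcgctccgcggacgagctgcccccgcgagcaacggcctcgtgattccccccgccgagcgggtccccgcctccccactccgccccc

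Inhibitory transmitter is loaded into vesicles by the transporter encoded by *Slc32a1*, which carries both GABA and glycine, and glycinergic amacrine cells take up glycine through the product of *Slc6a9*. *Slc32a1* read 11.78, 11.84 and 12.04 in E168d2neo/d2neo, 11.88, 11.88 and 12.03 in R90Wneo/Wneo, 11.80, 11.63 and 11.93 in Crx-/- and 11.51, 11.84 and 11.76 in WT. WT replicate 1 was the lowest of the 12 arrays, and the log2 fold changes of 0.19, 0.23 and 0.08 did not pass the test (adjusted p = 0.528, 0.645 and 0.817). The brighter *Slc6a9* probe read 11.52, 11.51 and 11.76 in E168d2neo/d2neo, 11.96, 11.92 and 12.07 in R90Wneo/Wneo, 11.51, 11.63 and 11.55 in Crx-/- and 11.69, 11.71 and 11.75 in WT. The 3 R90Wneo/Wneo arrays were the highest of the 12, yet none of the differences passed. The log2 fold change was 0.26 against WT (adjusted p = 0.493) and 0.42 against Crx-/- (adjusted p = 0.254), and it was -0.39 in E168d2neo/d2neo against R90Wneo/Wneo (adjusted p = 0.384). Its second probe was detected on 1 array only.

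*Calb2* encodes calretinin, a calcium-binding protein of AII and starburst amacrine cells that ganglion cells also make. Its brighter probe read 12.77, 12.96 and 13.35 in E168d2neo/d2neo, 13.16, 13.32 and 13.33 in R90Wneo/Wneo, 12.92, 12.71 and 13.04 in Crx-/- and 12.96, 13.34 and 13.21 in WT. The Crx-/- arrays were at the low end and overlapped with WT. The log2 fold change in Crx-/- was -0.28 by this probe (adjusted p = 0.425) and -0.32 by the other (adjusted p = 0.374), and neither probe passed in any comparison. Ganglion cell genes were measured for 6 members, 0 of which changed in any of the 3 mutants (0 by SAM), with a median log2 fold change of -0.18 in Crx-/-. An unadjusted p under 0.05 held for 1, 0 and 1 in E168d2neo/d2neo, R90Wneo/Wneo and Crx-/-, beside 21.6%, 11.4% and 21.6% of all probes.

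**Figure D2:**
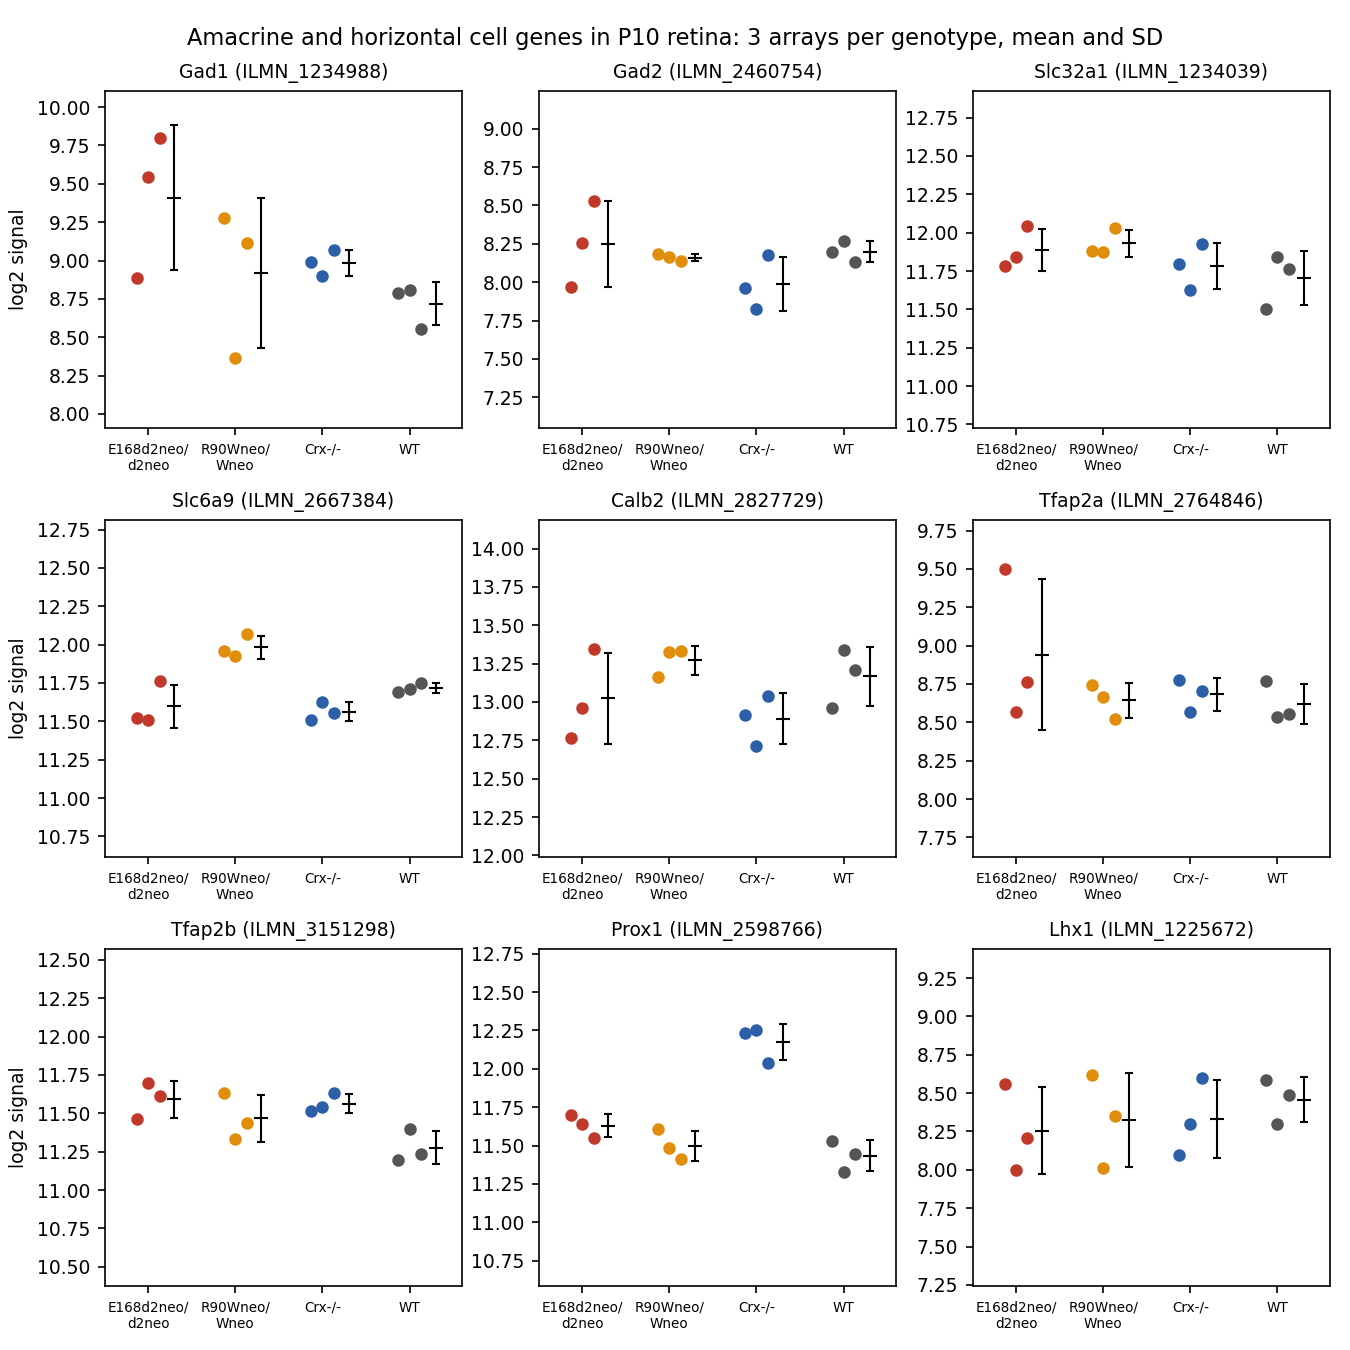
Log2 signal (y axis, panels of equal height in log2 units) of the brightest probe of the 9 measured genes on each array, by genotype (x axis); the bars give the mean and SD of 3 arrays. The Crx-/- arrays of *Prox1* lie at 12.04 to 12.25, above all others (WT 11.33 to 11.53); *Slc6a9* is highest on the 3 R90Wneo/Wneo arrays, and E168d2neo/d2neo replicate 1 stands off for *Tfap2a*.

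Transcription factors of the interneurons included the single member whose change held in nearly every fit. *Prox1* encodes a homeodomain factor of horizontal cells and AII amacrine cells that is also made in some bipolar cells and in the lens. Its brighter probe (ILMN_2598766) read 11.70, 11.64 and 11.55 in E168d2neo/d2neo, 11.61, 11.48 and 11.41 in R90Wneo/Wneo, 12.23, 12.25 and 12.04 in Crx-/- and 11.53, 11.33 and 11.44 in WT. The 3 Crx-/- arrays lay above the other 9. *Prox1* rose in Crx-/- by 0.74 on the log2 scale (standard error 0.14, 95% interval 0.44 to 1.04, adjusted p = 0.00804), which is 1.67-fold. The call held in 12 of 12 fits that left out 1 array, with a log2 fold change of 0.69 to 0.81. Neither knock-in passed for this probe, at 0.20 for E168d2neo/d2neo (adjusted p = 0.449) and 0.07 for R90Wneo/Wneo (adjusted p = 0.914). Set directly against Crx-/-, the difference of -0.54 for E168d2neo/d2neo (adjusted p = 0.119) and of -0.67 for R90Wneo/Wneo (adjusted p = 0.066) missed the threshold, so the 3 mutants were not shown to differ in *Prox1* by this fit.

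The second *Prox1* probe (ILMN_2894355) was dimmer and read 8.11, 7.49 and 7.45 in E168d2neo/d2neo, 7.87, 7.66 and 7.45 in R90Wneo/Wneo, 7.68, 7.86 and 7.65 in Crx-/- and 7.65, 7.34 and 7.51 in WT. Its Crx-/- difference of 0.23 had the same sign and did not pass (adjusted p = 0.551), with an interval of -0.21 to 0.67. Crx-/- replicates 1, 2 and 3 had summed lens signals of 13.88, 8.55 and 11.54, against 7.34 to 9.04 in WT, and the part of lens in the *Prox1* result was not tested. Leaving out the 4 arrays of highest lens signal left a single Crx-/- array, a log2 fold change of 0.82 and an adjusted p of 0.0682. Of 6 bipolar cell genes 0 changed in Crx-/- by limma or SAM, with a median log2 fold change of -0.50. An unadjusted p under 0.05 held for 4 of the 6, beside 21.6% of all probes. The part of bipolar cells in the *Prox1* result was not tested.

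Both annotated starts of *Prox1* are shown because this gene carried the change. The 2 windows, on the same strand, hold no TAATCC or GGATTA, which says only that these letters are not in them.
Prox1, chr1:190170828-190171077, minus strand: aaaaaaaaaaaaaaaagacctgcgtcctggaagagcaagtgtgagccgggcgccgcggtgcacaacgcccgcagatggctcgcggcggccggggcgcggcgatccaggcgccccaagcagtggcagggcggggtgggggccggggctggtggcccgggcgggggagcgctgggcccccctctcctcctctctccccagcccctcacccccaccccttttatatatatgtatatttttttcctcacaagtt
Prox1, chr1:190169516-190169765, minus strand: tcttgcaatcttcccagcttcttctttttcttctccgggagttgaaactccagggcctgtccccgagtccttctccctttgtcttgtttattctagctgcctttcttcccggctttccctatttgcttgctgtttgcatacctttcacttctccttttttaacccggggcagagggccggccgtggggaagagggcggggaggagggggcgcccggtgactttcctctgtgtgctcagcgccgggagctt

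**Figure D3:**
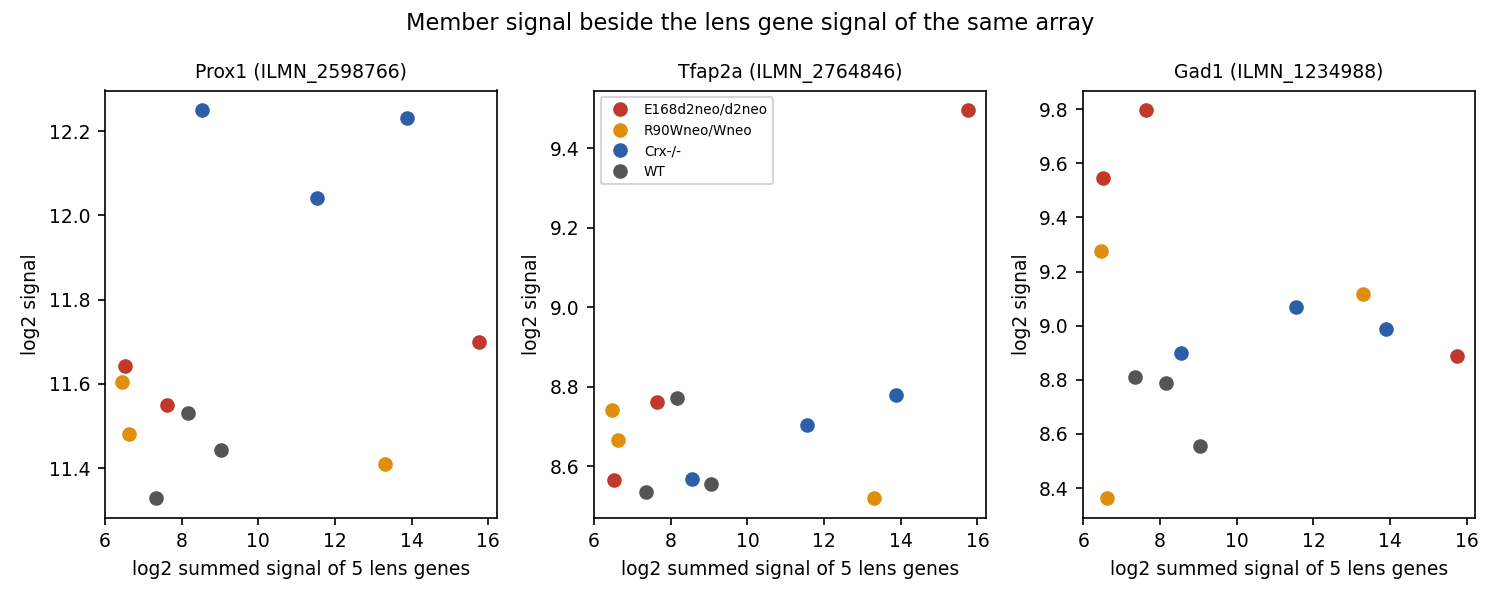
Log2 signal of the brightest *Prox1*, *Tfap2a* and *Gad1* probe (y axes) against the log2 summed signal of 5 lens genes on the same array (x axes), 1 point per array, coloured by genotype. *Prox1* is high on all 3 Crx-/- arrays at lens signals of 8.55, 11.54 and 13.88, and *Tfap2a* is highest on the array with a lens signal of 15.76.

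*Lhx1* encodes a LIM homeodomain factor that places horizontal cells in their layer. Its brighter probe (ILMN_1225672) read 8.56, 8.0 and 8.21 in E168d2neo/d2neo, 8.62, 8.01 and 8.35 in R90Wneo/Wneo, 8.09, 8.30 and 8.60 in Crx-/- and 8.58, 8.30 and 8.49 in WT, with all genotypes overlapping. The dimmer probe (ILMN_2716543) read 6.15, 6.55 and 6.48 in E168d2neo/d2neo, 7.10, 6.61 and 6.96 in R90Wneo/Wneo, 6.69, 7.26 and 6.68 in Crx-/- and 7.02, 7.26 and 7.20 in WT. All 3 E168d2neo/d2neo arrays lay below the 9 others. By this probe *Lhx1* fell in E168d2neo/d2neo, its log2 signal being lower by -0.77 (limma, adjusted p = 0.049, standard error 0.20), while the brighter probe had -0.20 (adjusted p = 0.629). The call sat at the threshold: it held in 2 of 12 fits that left out 1 array, with an adjusted p of 0.0358 to 0.137, and in 2 of 10 other fits.

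*Tfap2a* and *Tfap2b* encode AP-2 factors that specify horizontal and amacrine fate and stay on in amacrine cells. *Tfap2a* read 9.50, 8.57 and 8.76 in E168d2neo/d2neo, 8.74, 8.67 and 8.52 in R90Wneo/Wneo, 8.78, 8.57 and 8.70 in Crx-/- and 8.77, 8.53 and 8.56 in WT. The value of 9.50 was on E168d2neo/d2neo replicate 1, where the second *Tfap2a* probe also stood highest at 8.03, against 6.56 to 7.38 on the 11 other arrays. That array also carried the most lens signal (15.76), and the part of lens in the *Tfap2a* value was not tested. The log2 fold change of *Tfap2a* was 0.32 in E168d2neo/d2neo (adjusted p = 0.441). *Tfap2b* was measured by 6 probes and none passed in any comparison. Its brightest probe read 11.46, 11.70 and 11.61 in E168d2neo/d2neo, 11.64, 11.33 and 11.43 in R90Wneo/Wneo, 11.52, 11.54 and 11.63 in Crx-/- and 11.19, 11.40 and 11.23 in WT. WT was at the low end, and the log2 fold change of 0.31 for E168d2neo/d2neo (adjusted p = 0.228) and of 0.29 for Crx-/- (adjusted p = 0.272) did not pass. A dimmer *Tfap2b* probe went the other way, with a log2 fold change of -0.52 in Crx-/- (adjusted p = 0.102), so the estimates of this gene's probes differed in sign.

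Lists of related genes, each gene by its probe of highest mean, put the members in context. Among 17 measured transcription factors of amacrine and horizontal cells other than the members, 1 rose in E168d2neo/d2neo, 0 changed in R90Wneo/Wneo and 2 rose in Crx-/-, and 0 fell in any. At an unadjusted p under 0.05 there were 9, 5 and 8 of 17, beside 21.6%, 11.4% and 21.6% of all probes, and SAM called 0, 0 and 2. The list's median log2 fold change was 0.44, 0.25 and 0.33, beside 0.01 over all probes. *Onecut2*, whose family drives horizontal cell formation, read 7.84, 8.34 and 7.92 in E168d2neo/d2neo, 8.10, 8.02 and 8.21 in R90Wneo/Wneo, 8.54, 8.61 and 8.54 in Crx-/- and 7.10, 7.49 and 7.94 in WT. It rose in Crx-/- by 1.06 (standard error 0.21, adjusted p = 0.0126), and its second probe rose by 0.89 (adjusted p = 0.0197). The call of the first probe was lost without Crx-/- replicate 2 (adjusted p = 0.0507), with only the 2 genotypes compared (adjusted p = 0.0546) and without the 4 arrays of highest lens signal (adjusted p = 0.182).

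*Prdm13*, a factor of GABAergic and glycinergic amacrine subtypes, read 8.33, 8.38 and 8.45 in E168d2neo/d2neo, 8.27, 8.18 and 8.06 in R90Wneo/Wneo, 8.94, 8.83 and 8.32 in Crx-/- and 7.50, 7.83 and 7.85 in WT. The 9 mutant arrays lay above the 3 WT arrays. It rose in Crx-/- by 0.97 (standard error 0.18, adjusted p = 0.00922), a call held in 12 of 12 fits without 1 array and lost with only the 2 genotypes compared (adjusted p = 0.055), and the 0.66 in E168d2neo/d2neo just missed (adjusted p = 0.056). *Lmo4*, a LIM-only cofactor of GABAergic amacrine cells, read 12.16, 12.31 and 12.48 in E168d2neo/d2neo, 12.22, 11.86 and 12.07 in R90Wneo/Wneo, 12.18, 12.16 and 12.28 in Crx-/- and 11.62, 11.72 and 11.67 in WT. It rose in E168d2neo/d2neo by 0.65 (standard error 0.15, adjusted p = 0.0247), and SAM did not call it. This call was lost without E168d2neo/d2neo replicate 2 or 3, or without WT replicate 1, 2 or 3 (adjusted p up to 0.0878), with only the 2 genotypes compared (adjusted p = 0.0581) and without the 4 arrays of highest lens signal (adjusted p = 0.0506). Its 0.54 in Crx-/- had an adjusted p of 0.0518, and it passed in 2 of 12 fits that left out 1 array and in 6 of 10 other fits. Every mutant array lay above every WT array by this probe. A second, much dimmer *Lmo4* probe (ILMN_1247702) averaged 5.57 in WT, where it was detected on 2 of 3 arrays. Its mutant means were higher, at 6.94 (Crx-/-), 7.12 (R90Wneo/Wneo) and 7.27 (E168d2neo/d2neo). By the dimmer probe too, every mutant array lay above every WT array, so the higher level was not particular to E168d2neo/d2neo. No test result is given for it here. *Pax6*, *Barhl2*, *Neurod6* and *Tfap2e* were on the array and undetected.

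By limma, 0 genes of the remaining lists changed in any mutant. These held 6 measured genes of inhibitory transmitter synthesis, transport and breakdown, 16 of GABA and glycine receptors and their scaffold, 16 of amacrine subtype transmitters and structure, and 3 of horizontal cell structure. The median log2 fold change in E168d2neo/d2neo, R90Wneo/Wneo and Crx-/- was 0.18, 0.08 and 0.28 for the first list, -0.09, 0.08 and -0.11 for the receptors, -0.13, -0.03 and -0.08 for the amacrine subtypes, and 0.11, 0 and 0.03 for horizontal cell structure. An unadjusted p under 0.05 was found for 21.6%, 11.4% and 21.6% of all probes. Beside this there were 2, 1 and 1 genes in the first list and 4, 1 and 2 receptors. The amacrine subtypes had 3, 0 and 1 such genes, and horizontal cell structure had 0, 0 and 1. SAM called 1 of all these, *Pvalb* in Crx-/-, which encodes the calcium-binding protein parvalbumin and is named here after its values were seen. It averaged 7.16 ± 0.29 in Crx-/- and 8.41 ± 0.14 in WT (SD, n = 3 each), a log2 fold change of -1.25 that just missed by limma (adjusted p = 0.0519). *Gja10*, which encodes the connexin of horizontal cell gap junctions, was undetected, so with *Calb1* also absent the horizontal cell side rests on few genes. Of 6 measured rod genes, 4 fell in E168d2neo/d2neo mice, and 3 fell in Crx-/- mice, while R90Wneo/Wneo had 0 changed (0 by SAM). In R90Wneo/Wneo 4 of the 6 had an unadjusted p under 0.05, beside 11.4% of all probes.

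**Figure D4:**
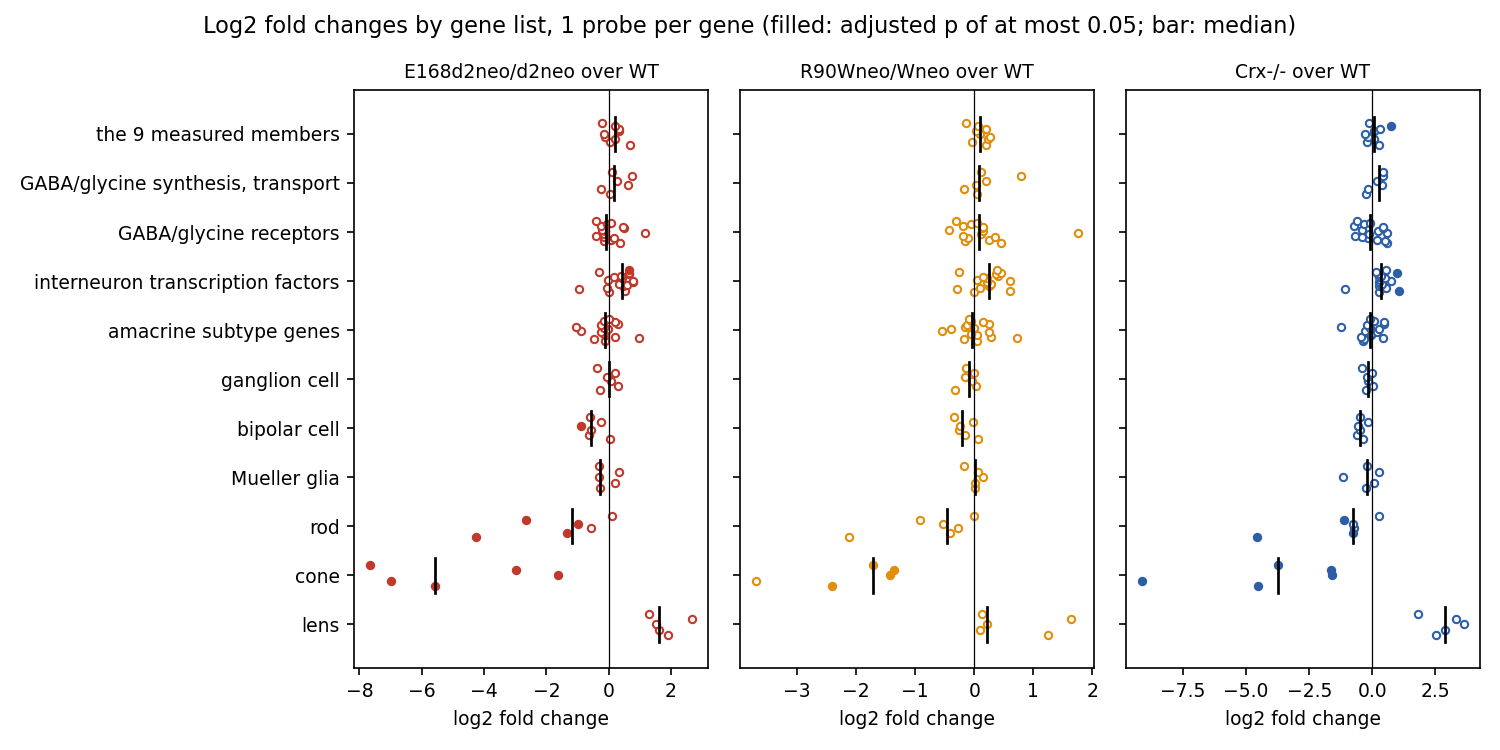
Log2 fold change against WT (x axis, a separate scale in each panel) of the measured genes of each list (y axis), 1 point per gene, with the list's median as a bar and changed genes filled. The 9 measured members and the interneuron lists have medians of -0.13 to 0.44 and the cone genes medians of -5.59 to -1.72. The 5 lens genes lie above 0 without passing the limma test, while SAM called 1 of them in Crx-/-.

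The genes whose 12-array profile lay nearest that of a changed member were found from the root mean square difference of log2 values centred on each probe's mean. For *Prox1* these were *Lrp8* (0.0882) and *Ccny* (0.108), where the profile of *Prox1* itself varied by 0.302. For the dimmer *Lhx1* probe they were *Cnksr2* (0.14) and *Pgrmc2* (0.171), against its own 0.34. With 12 arrays and 24311 probes such likeness is a description only.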

How the data were processed

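Retinal RNA was hybridised to Illumina MouseWG-6 v2.0 bead arrays. The authors deposited, for each probe and array, a background-subtracted signal intensity from Genome Studio, not normalized between arrays, and a detection p-value against negative controls. A second deposited table of intensity is the same signal times 1 factor per array (mean 296.7), matched by row order because its identifiers did not belong to its values. Gene symbols came from the platform table.

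Signals were quantile-normalized as in the study's methods, floored at 16 and log2-transformed. Probes detected (p under 0.05) on 1 or more of the 12 arrays were fitted by genotype with limma 3.58.1 (R 4.3.3), with Benjamini-Hochberg adjustment over all tested probes within each of 6 comparisons. Significance analysis of microarrays (SAM), which the study used, was an alternative, as were other scalings, filters, subsets of arrays and a replicate block. Scripts were tested on simulated data: of 200 probes drawn from all 24311 and changed 3-fold in Crx-/- against WT, limma recovered 136 (81 of 101 above the median signal, 55 of 99 below it) and SAM 78, none in the wrong direction, with 8 and 6 false calls. Smaller changes were not simulated, so this gives no recovery rate for differences of the size seen in the members. With 3 arrays against 3, which limits the precision of each value, the smallest two-sided p of an exact permutation test is 0.1.

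Members and gene lists were chosen with earlier results of these data known. Named were every member, *Crx*, changed genes of the interneuron lists (up to 4 per direction), and the 2 nearest profiles of each changed member. The rule also takes the 2 brightest genes of each list of other cell types. These genes are not named here, and list counts are given only for cone, rod, bipolar, ganglion and lens genes.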

Additional observations from a re-analysis of the deposited data

How the results depend on the processing

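The rise of *Prox1* in Crx-/- (1 member probe) held in every alternative but one. Without the 4 arrays of highest lens signal, an alternative chosen after seeing the data that leaves 1 Crx-/- array, the count was 0, and leaving out 1 array gave 1 to 1. The count of 1 in E168d2neo/d2neo, the dimmer *Lhx1* probe, was 0 with each array scaled to the same mean, with no filter on dim probes, with only the 2 genotypes compared, with SAM, with the second deposited table and without the 4 arrays of highest lens signal. Leaving out 1 array gave 0 to 1. Without E168d2neo/d2neo replicate 1, without WT replicate 1 or without both, the 2 arrays of lowest mean signal, the count of 1 was a *Gad1* probe and *Lhx1* was lost (adjusted p = 0.0744, 0.0705 and 0.085). In R90Wneo/Wneo the count stayed 0 under every alternative run. Between mutants, *Prox1* made the count 1 in E168d2neo/d2neo against Crx-/- with no filter. It did so in R90Wneo/Wneo against Crx-/- with a pseudocount of 50, with probes detected on at least 3 arrays, with no filter and without the 2 arrays of lowest mean signal (also chosen after seeing the data), and leaving out 1 array gave 0 to 1. No fold change of a called probe changed sign. The causes were not tested.

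Replicate numbers are shared between genotypes in the labels. Of 18 pairs of same-numbered arrays 6 deviated together with r over 0.1 (range -0.05 to 0.31). Between differently numbered arrays r ranged from -0.29 to 0.29. It was over 0.1 only for E168d2neo/d2neo replicate 2 with WT replicate 3 (0.12) and replicate 3 with WT replicate 2 (0.29). Whether same-numbered arrays share a source was not tested, and the main fit did not take the numbers as pairs. With the replicate block the E168d2neo/d2neo count was 0 (*Lhx1* adjusted p = 0.0706) and the Crx-/- count was 1 (*Prox1* adjusted p = 0.0131).

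The number of all probes changed against WT varied more. It was 1595 in E168d2neo/d2neo (723 with only the 2 genotypes compared, 866 with SAM), 326 in R90Wneo/Wneo (58 and 28) and 1705 in Crx-/- (1995 and 1678). Without the 4 arrays of highest lens signal it was 1650, 92 and 730, and without the 2 of lowest mean signal 2631, 313 and 2604. Without E168d2neo/d2neo replicate 1 it was 3161, 532 and 2747, the highest of the fits that left out 1 array. It was lower by more than 1.5 times without E168d2neo/d2neo replicate 2 or 3 (991 and 971 in E168d2neo/d2neo), R90Wneo/Wneo replicate 1 or 3 (92 and 195 in R90Wneo/Wneo) and Crx-/- replicate 1 or 2 (943 and 911 in Crx-/-). Without WT replicate 2 or 3 it was 1040 and 1011 in E168d2neo/d2neo, 195 and 200 in R90Wneo/Wneo and 1090 and 1069 in Crx-/-, and without WT replicate 1 it was 159 in R90Wneo/Wneo. Dim probes near the floor of 16, among them the second probe of *Slc6a9* and the dimmest of the 6 of *Tfap2b*, have compressed differences.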
